A study of Homo sapiens with 12 samples.

Results

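This account covers 38 genes of hypoxia signalling and glycolysis in MDA-MB-231, an established human breast cancer cell line that lacks the oestrogen and progesterone receptors and has mesenchymal features. The genes were chosen by symbol from the 26364 rows of the deposited count table, for known roles in glucose uptake, glycolysis, lactate export and the response to hypoxia-inducible factor (HIF). The rule uses no measured value, but the genes were proposed with earlier results of these data known. All 38 were among the 14184 genes that passed the filter on low counts. Cells grew for 24 h in plates and were then treated for 24 h, with 3 wells in each of 4 groups. One group received no drug, another DEX (dexamethasone, a synthetic steroid that activates the glucocorticoid receptor) at 1 µM, another SH4-54 (a compound made to inhibit STAT3 and STAT5) at 8 µM, and the last received both compounds at those doses. All groups were the same cell line, with no allele or transgene named, and the sources used here give neither vehicle nor oxygen tension. The wells are replicate cultures of 1 line in 1 experiment as far as the labels say, so the p-values measure the spread between wells.

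HIF is a dimer of an oxygen-regulated alpha subunit, encoded by HIF1A or EPAS1, and a constitutive beta subunit. In oxygenated cells the prolyl hydroxylases encoded by EGLN1 and EGLN3 mark the alpha subunit for destruction, so HIF activity is set largely at the protein level, which RNA does not show. When the subunit is stable it binds a short core, ACGTG or GCGTG, near genes for glucose transporters, nearly every glycolytic enzyme, the lactate exporter SLC16A3 and the pyruvate dehydrogenase kinase PDK1, and near genes for angiogenesis, mitophagy and collagen hydroxylation. Many cancer cells, MDA-MB-231 among them, use glycolysis heavily even in oxygen. Glucocorticoids are known for opposing glucose use in many tissues.

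Since many of these genes are known to respond to HIF, promoters were searched for its core in RefSeq sequences of the build GRCh38.p14. The windows ran from 250 bases before to 50 bases after each start site, and both strands were searched. Of the 38 members, 33 had an entry, with 63 windows. ACGTG or GCGTG occurred in 41 of the 63 windows (65.1%), against 48.4% of all 35116 windows in the table. By gene, 30 of the 33 (90.9%) had at least 1 match, against 52.4% of all genes. The members had more windows per gene, 63 for 33 genes against 35116 for 27305. A gene with more windows has more chances of a match, so the shares by gene are not on equal terms. Windows of the same gene can overlap, as some of HK1, PFKM and KDM3A do, so the shares by window count some bases more than once. ACGTG alone was in 36.5% of member windows and 21.4% of all, and GCGTG alone in 41.3% and 36.5%. The E-box CACGTG, which contains ACGTG, was in 14.3% and 7.26%. The glucocorticoid receptor motif, searched as GNACA, any 3 bases and then TGTNC, was in 0 of 63 member windows and in 0.39% of all. At so low a share 63 windows are too few to tell the members from all promoters. The STAT motif TTCNNNGAA was in 2 of 63 (3.17%) and in 7.66% of all, and here too 63 windows are too few to tell the members from all promoters. A match is a description of the letters and no measure of binding, and the members were not drawn at random. Members with more than 1 window, among them HIF1A, SLC16A3, PFKFB3, HK2 and LDHA, were not taken for printing. The 250 bases before the start site are shown for 6 members with a single window whose RNA the results below turn on, chosen after their values were seen. They are written 5′ to 3′ along the gene's strand with the core in capitals on whichever strand it lies (CACGT is ACGTG read on the opposite strand).
ADM (chr11:10304823-10305072, plus strand): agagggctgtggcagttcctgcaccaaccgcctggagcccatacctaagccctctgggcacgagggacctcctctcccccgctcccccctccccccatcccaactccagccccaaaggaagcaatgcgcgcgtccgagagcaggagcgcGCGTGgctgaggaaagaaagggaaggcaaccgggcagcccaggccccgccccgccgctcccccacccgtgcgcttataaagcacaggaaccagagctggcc
PGK1 (chrX:78103998-78104247, plus strand): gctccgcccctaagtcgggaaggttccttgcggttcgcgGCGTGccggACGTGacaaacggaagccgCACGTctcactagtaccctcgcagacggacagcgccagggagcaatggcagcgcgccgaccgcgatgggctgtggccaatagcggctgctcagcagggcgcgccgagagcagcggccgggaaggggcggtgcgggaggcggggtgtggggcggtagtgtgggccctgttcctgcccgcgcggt
P4HA1 (chr10:73096867-73097116, minus strand): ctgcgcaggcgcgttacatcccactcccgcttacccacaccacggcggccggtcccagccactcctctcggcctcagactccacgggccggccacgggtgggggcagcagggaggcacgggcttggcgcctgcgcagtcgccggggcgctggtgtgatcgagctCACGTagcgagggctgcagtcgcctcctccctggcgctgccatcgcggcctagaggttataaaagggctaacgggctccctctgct
PFKFB4 (chr3:48556804-48557053, minus strand): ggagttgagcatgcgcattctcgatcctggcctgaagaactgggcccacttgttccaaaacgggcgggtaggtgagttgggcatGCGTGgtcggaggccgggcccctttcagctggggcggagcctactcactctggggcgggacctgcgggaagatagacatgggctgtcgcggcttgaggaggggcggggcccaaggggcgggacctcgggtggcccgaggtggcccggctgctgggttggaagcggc
ENO2 (chr12:6914330-6914579, plus strand): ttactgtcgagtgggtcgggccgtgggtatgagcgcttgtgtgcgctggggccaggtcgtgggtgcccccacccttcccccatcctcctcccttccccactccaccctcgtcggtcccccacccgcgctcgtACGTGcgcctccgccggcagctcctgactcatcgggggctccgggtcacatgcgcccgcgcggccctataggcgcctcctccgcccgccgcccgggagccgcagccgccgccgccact
EGLN3 (chr14:33951075-33951324, minus strand): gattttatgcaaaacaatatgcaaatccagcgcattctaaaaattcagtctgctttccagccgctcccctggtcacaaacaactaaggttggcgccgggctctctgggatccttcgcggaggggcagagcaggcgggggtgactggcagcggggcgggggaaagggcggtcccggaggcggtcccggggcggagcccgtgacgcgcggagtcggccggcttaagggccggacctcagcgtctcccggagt
PGK1, whose RNA rose with DEX and less so with both compounds, had 3 cores in the stretch shown, beginning 211, 202 and 183 bases before the start site. Its whole window, which runs past the start site, had 4. ADM, whose RNA rose more with both compounds than with DEX, had 1, beginning at 101 bases. P4HA1 had 1 at 86, PFKFB4 1 at 166 and ENO2 1 at 118 bases. These letters do not occur in the EGLN3 window shown.

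Totals ran from 25577213 to 35758236 counts per library, and the 38 members took 1.86% to 1.95% of the counts in the group means. Values are CPM, each gene's count as a share of the TMM-scaled library size, multiplied by 1e6. FKBP5, a glucocorticoid receptor target, was at 53.9 ± 1.6 CPM (SD, n = 3) without drug, 326 ± 17 with DEX, 54.3 ± 2.3 with SH4-54 and 202, 181 and 271 with both. HSPA6, a heat shock chaperone, was at a mean of 0.408 CPM without drug, 0.394 with DEX and 24.0 with SH4-54, and at 150, 483 and 156 in the wells with both. The wells with both compounds thus differed widely among themselves in both genes, with FKBP5 highest in replicate 3 and HSPA6 highest in replicate 2, so counts with this group are also given without each of its wells. The 6 mesenchymal markers fixed for the line summed to 3854 to 3910 CPM without drug, 3574 to 3658 with DEX, 3717 to 3895 with SH4-54 and 3807 to 4186 with both. These sums hide opposite moves with DEX, where the mean of VIM went from 1325 to 853 CPM, CD44 from 429 to 279 and AXL from 904 to 669, while CAV1 went from 1020 to 1562 and EGFR from 117 to 173. ZEB1 was at 80.2 and 74.8. The 6 luminal or receptor markers summed to 34.7 to 36.5, 38.7 to 39.9, 30.6 to 31.9 and 28.0 to 34.3 in the same order, with EPCAM the largest and ESR1 at a mean of at most 0.139. The 3 markers of leukocytes, endothelium and macrophages summed to 42.1 to 44.6, 35.8 to 38.9, 47.5 to 47.9 and 47.9 to 53.0, nearly all of it CD68. The part of these shifts in the results below was not tested, and in bulk RNA fewer cells of a kind and less RNA per cell cannot be told apart.

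Without drug the members spanned a wide range. Levels of different genes are compared here per kb of the longest principal transcript. The transcripts present in these cells were not determined, so the order of genes at similar levels depends on that choice. GAPDH led at 2013 CPM per kb, followed by ENO1 at 1418 and PKM at 864. TPI1, LDHB, LDHA and ALDOA followed at 690, 687, 644 and 579. The lactate dehydrogenases LDHA and LDHB, which interconvert pyruvate and lactate, were therefore at similar levels without drug, at 644 ± 29 and 687 ± 9.4 CPM per kb (SD, n = 3). With DEX the order was the other way round, at 815 ± 38 for LDHA and 742 ± 7.5 for LDHB. The order in either group rests on the lengths used, 2416 bases for LDHA and 1538 for LDHB, and no other lengths were tried.

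In several families 1 paralog held nearly all of the RNA of the members compared. HIF1A stood at 164 CPM per kb and EPAS1 at 13.1, the transporter SLC2A1 at 186 and SLC2A3 at 9.02, and ALDOA at 579 with ALDOC at 1.63. Of the lactate transporters among the members SLC16A3 stood at 64.2 and SLC16A1 at 0.0484, the latter from 5 to 25 counts per library across the 4 groups. SLC16A7, a related transporter that is not a member, had a highest group mean of 97.1 CPM, against 310 for SLC16A3 without drug. Among phosphofructokinases PFKP led at 126, with PFKM at 27.9 and PFKL at 25.6. HK1 exceeded HK2, at 42.9 and 16.2. The hexokinase relative HKDC1, not a member, was at 125 CPM without drug, between HK1 at 155 and HK2 at 93.3. Levels per kb were not computed for genes outside the members. Reads of 50 bases from GAPDH, PGK1, PGAM1, LDHA, ENO1, TPI1, ALDOA, PKM and SLC2A3 can also match processed pseudogenes or near copies, and the sources used here do not say how such reads were counted, so these levels are uncertain. PGAM1 shows the widest spread among highly expressed members, from 514 to 644 CPM without drug and from 511 to 776 with both compounds. Its relative PGAM4, not a member, was lowest in the well where PGAM1 was highest in each group. PGAM4 was at 15.8, 0.497 and 16.0 CPM without drug, where PGAM1 was at 514, 644 and 521. With both compounds PGAM4 was at 4.82, 0.326 and 15.1, and PGAM1 at 608, 776 and 511. Whether reads were shared out differently between these genes from well to well was not tested.

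**Figure D1:**
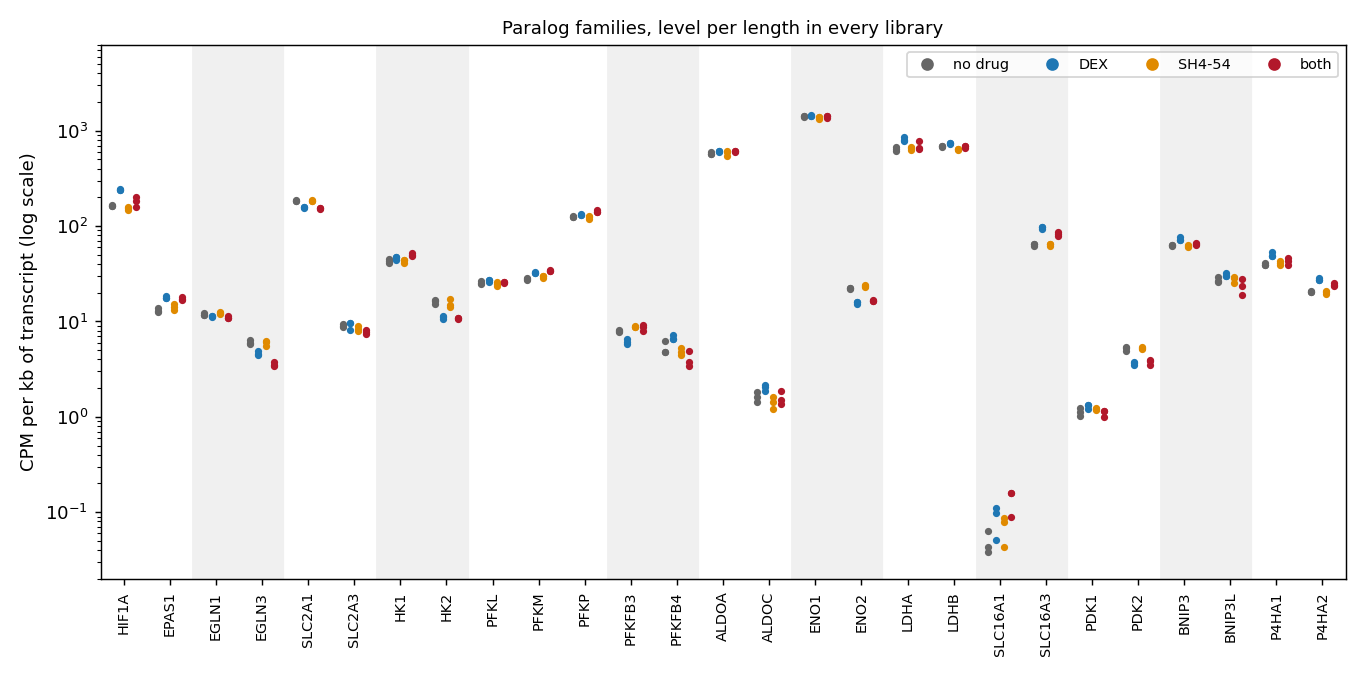
Level of each paralog in every well, as CPM per kb of transcript on a log axis, with points coloured by group and families shaded alternately. HIF1A, SLC2A1, ALDOA, ENO1 and SLC16A3 lie well above the paralogs drawn beside them in all 4 groups, while the LDHA and LDHB points lie close together.

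DEX alone changed most of these genes, in both directions and by modest amounts. By edgeR's quasi-likelihood test, with Benjamini-Hochberg adjustment over all genes, 14 members rose, 9 fell and 15 did not pass, so 60.5% were called against 45.1% of all genes tested (21.9% up, 23.2% down). The members were also measured a little more precisely than most genes, with a median standard error of 0.05 on the log2 scale against 0.06, and their median log2 change was 0.10 against -0.01. The values of 27 of the 38 (71.1%) did not overlap between the groups, against 56.1% of all genes. No member reached a 2-fold change, which 683 of all genes did. RNA for both HIF alpha subunits and the lactate exporter SLC16A3 rose, while HK2, ENO2, PKM, PFKFB3 and PDK2 fell.

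HIF1A was at 657, 640 and 635 CPM without drug and at 933, 949 and 933 with DEX. The groups stood far apart, and the log2 change was 0.54 ± 0.06 (SE; adjusted p = 3.65e-06). EPAS1, the other alpha subunit, went from 71.7, 65.4 and 65.8 to 96.5, 90.8 and 91.5 CPM, a change of 0.46 ± 0.06 (adjusted p = 7.95e-06). Both subunits were thus higher with DEX in every well, 1.46-fold and 1.37-fold. Of the oxygen sensors, EGLN3 fell from 17.5, 15.9 and 15.6 to 12.03, 12.4 and 13.4 CPM, by 0.38 ± 0.07 (adjusted p = 0.000529). EGLN1 was at a mean of 84.2 CPM without drug and 81.0 with DEX (adjusted p = 0.197).

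SLC16A3, which exports lactate from glycolytic cells, had the largest called rise of the members, from 314, 315 and 300 to 478, 454 and 473 CPM, 1.51-fold (log2 0.60 ± 0.04, adjusted p = 7.74e-09). PGK1, the first enzyme of glycolysis to make ATP, went from 547, 564 and 543 to 768, 760 and 747 CPM, with no overlap and a change of 0.46 ± 0.03 (adjusted p = 3.05e-08). LDHA rose from 1624, 1559 and 1483 to 1938, 2073 and 1900 CPM (0.34 ± 0.06, adjusted p = 0.000267). LDHB also rose, by 0.11 on the log2 scale. PFKM rose by 0.21 and GPI by 0.10, the latter with overlapping groups.

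The enzymes that fell stand at other steps. HK2, the inducible hexokinase that traps glucose in the cell, was at 98.1, 94.1 and 87.8 CPM without drug and 61.6, 65.2 and 63.8 with DEX. That is 1.47-fold lower (log2 -0.56 ± 0.06, adjusted p = 1.74e-06), while HK1 was at means of 155 and 166 (adjusted p = 0.0661). ENO2 went from 63.5, 61.8 and 63.1 to 43.3, 45.6 and 45.4 CPM (-0.49 ± 0.04, adjusted p = 5.37e-08), and its far more abundant paralog ENO1 was not called at 3324 and 3364. PKM, the pyruvate kinase, fell from 2430, 2296 and 2320 to 1816, 1819 and 1755 CPM (-0.39 ± 0.04, adjusted p = 1.9e-06). PFKL, PFKP, ALDOA, ALDOC, TPI1, GAPDH, PGAM1 and ENO1 did not pass the test with DEX.

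The regulators of entry and exit were split. PFKFB3 and PFKFB4 make the activator of phosphofructokinase. PFKFB3 fell from 36.02, 35.2 and 36.8 to 29.4, 27.5 and 25.8 CPM (-0.38 ± 0.06, adjusted p = 9.84e-05), and PFKFB4 rose from 22.5, 17.3 and 17.4 to 23.7, 26.2 and 23.3 (0.35 ± 0.12, adjusted p = 0.0287). The pair of pyruvate dehydrogenase kinases, which hold pyruvate back from the mitochondria, also moved apart. PDK2 fell from 18.3, 18.5 and 16.8 to 12.5, 11.95 and 12.96 CPM (-0.52 ± 0.06, adjusted p = 8.7e-06), and PDK1 rose by 0.20 ± 0.08 (adjusted p = 0.0466), with overlapping groups. The glucose transporter SLC2A1 fell from 692, 679 and 680 to 587, 571 and 588 CPM (-0.23 ± 0.03, adjusted p = 5.13e-06), and SLC2A3 was at means of 35.3 and 35.7. SLC16A1 was not called. The calls of GPI, KDM3A, PDK1 and PFKFB4 with DEX were lost when 1 library or another was left out.

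Of the 9 other HIF targets 4 rose and 2 fell. P4HA1 and P4HA2, subunits of the prolyl hydroxylase that matures collagen, rose by 0.35 ± 0.05 and 0.43 ± 0.04. P4HA2 was at 70.3, 68.5 and 67.8 CPM without drug and 91.8, 94.9 and 91.9 with DEX, with no overlap. The mitophagy receptor BNIP3 rose by 0.22 ± 0.04 and the vasodilator peptide ADM by 0.26 ± 0.07. The angiogenic factor VEGFA fell from 51.2, 52.1 and 44.3 to 40.6, 42.4 and 42.2 CPM (-0.24 ± 0.06, adjusted p = 0.00531), and the histone demethylase KDM3A fell by 0.20 on the log2 scale. BNIP3L, NDRG1 and ANKRD37 did not pass, ANKRD37 at about 1.31 CPM. Over these 9 genes the median change was 0.16, with 66.7% called. Over the 17 glycolytic enzymes and lactate dehydrogenases, of which 5 rose and 3 fell, it was 0.08, with 47.1% called against the 45.1% of all genes. The difference between the classes was not tested.

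**Figure D2:**
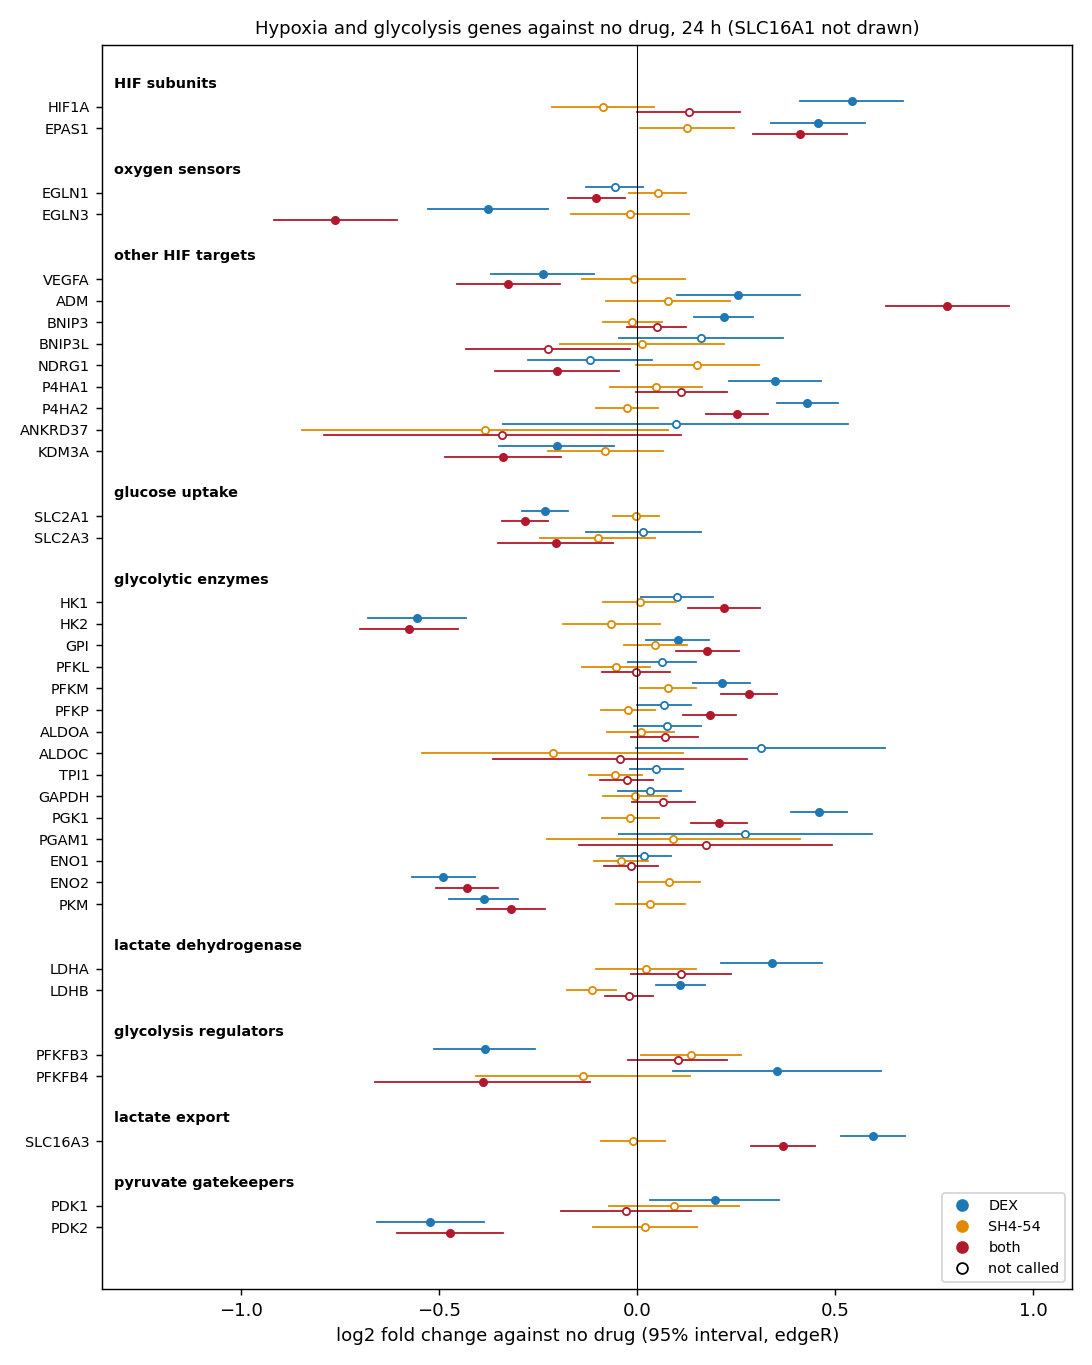
Log2 fold change against no drug for 37 of the 38 members (SLC16A1 is not drawn), by role, with 95% intervals from edgeR; filled points were called at an adjusted p below 0.05 and open points were not. SH4-54 points lie near 0, DEX points spread to both sides, and for EGLN3 and ADM the points for both compounds lie farther from 0 than those for DEX.

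SH4-54 alone left these genes without a call. By edgeR 0 of 38 members passed, against 0.599% of all genes (0.268% up, 0.331% down), and 5 had an unadjusted p under 0.05 (PFKM, ENO2, LDHB, PFKFB3 and EPAS1), 13.2% against 13.1% of all genes. DESeq2 called 1 member, LDHB, at 1041, 1064 and 1067 CPM without drug and 956, 992 and 984 with SH4-54 (log2 -0.11, DESeq2 adjusted p = 0.0092). That gene's groups do not overlap, and edgeR's adjusted p was 0.108. Groups did not overlap for 5 members, 13.2% against 21.2% of all genes. For SLC2A1 the wells were at 680, 681 and 687 CPM, with a 95% interval of the log2 change from -0.06 to 0.06. For HIF1A the interval ran from -0.21 to 0.04, for HK2 from -0.19 to 0.06 and for LDHA from -0.10 to 0.15. The median member change was 0.00 and the range ran from -0.38 (ANKRD37) to 0.53 (SLC16A1), both genes at about 1 CPM or less.

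With both compounds the members rose and fell in about equal number, and 2 genes of the hypoxia response moved the farthest among those above 5 CPM. Against no drug 10 rose, 12 fell and 16 did not pass, so 57.9% were called against 42.7% of all genes (21.1% up, 21.6% down). The groups of 22 members (57.9%) did not overlap, against 51.4% of all genes. Without replicate 1, 2 or 3 of the combination, 10, 13 or 11 rose and 8, 8 or 13 fell. ADM was at 80.2, 82.8 and 91.6 CPM without drug and at 159, 155 and 125 with both compounds, 1.72-fold higher (log2 0.78 ± 0.07, adjusted p = 6.24e-07). EGLN3 was at 9.17, 9.49 and 10.2 CPM with both, against 17.5, 15.9 and 15.6 without drug, 1.69-fold lower (-0.76 ± 0.07, adjusted p = 8.23e-07). Neither gene's groups overlapped.

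Several DEX changes stood at much the same size with both compounds, and others did not. HK2 at 61.7, 62.8 and 63.5 CPM, ENO2 at 46.4, 47.4 and 46.3, PDK2 at 11.9, 13.1 and 13.5 and PKM at 1842, 1934 and 1880 were lower than without drug, with log2 changes of -0.57, -0.43, -0.47 and -0.32. EPAS1 was at 89.2, 86.4 and 94.3 CPM (0.41 ± 0.06, adjusted p = 2.64e-05). VEGFA at 36.6, 39.5 and 41.7 CPM and SLC2A1 at 553, 571 and 562 were below all no-drug wells. KDM3A was at 30.4, 31.0 and 36.01 CPM. EGLN1, NDRG1 and SLC2A3, not called with DEX alone, also fell, as did PFKFB4, which had risen with DEX alone. PFKFB4 and NDRG1 had overlapping groups, and these 4 calls were lost when 1 library or another was left out. SLC16A3 at 403, 381 and 417 CPM, PFKM at 112, 108 and 108, and P4HA2 at 80.7, 79.7 and 85.8 were above all no-drug wells, as were PGK1, HK1, GPI and PFKP. The log2 changes of SLC16A3 and P4HA2 were 0.37 and 0.25, smaller than the 0.60 and 0.43 with DEX alone. HIF1A was at 711, 619 and 787 CPM against 657, 640 and 635, with overlapping groups and no call (0.13 ± 0.06, adjusted p = 0.0953). Its difference was 0.22 without replicate 2 of the combination (adjusted p = 0.000888), where it was called, and 0.04 without replicate 3 (adjusted p = 0.5). LDHA was likewise not called at 1610, 1569 and 1865 CPM (adjusted p = 0.143), with a difference of 0.16 without replicate 2 (adjusted p = 0.0499) and 0.03 without replicate 3 (adjusted p = 0.669). SLC16A1 was called higher, at 0.389, 0.688 and 0.701 CPM from few counts.

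Adding SH4-54 to DEX lowered more members than it raised. Against DEX alone 4 rose, 13 fell and 21 did not pass, 44.7% called against 26.6% of all genes (13% up, 13.5% down), and 25 members (65.8%) did not overlap, against 39.9% of all genes. The median member change was -0.08, against 0.00 over all genes. Without replicate 1, 2 or 3 of the combination the counts were 3, 2 or 3 up and 11, 10 or 15 down. The genes that fell were HIF1A, EGLN3, BNIP3, BNIP3L, P4HA1, P4HA2, SLC2A3, PGK1, LDHA, LDHB, PFKFB4, SLC16A3 and PDK1. HIF1A was at 711, 619 and 787 CPM against 933, 949 and 933 with DEX, with no overlap (-0.41 ± 0.06, adjusted p = 0.000305). PFKFB4 had the largest fall, from 23.7, 26.2 and 23.3 to 13.4, 12.1 and 17.8 CPM, 1.67-fold (-0.74 ± 0.13, adjusted p = 0.000857). BNIP3L, at 109, 116 and 107 CPM with DEX and 84.6, 68.8 and 100 with both, spread widely with both compounds (-0.39 ± 0.10, adjusted p = 0.00951). PGK1 went to 634, 614 and 661 CPM, lower than with DEX (-0.25 ± 0.03, adjusted p = 0.000134) and higher than without drug.

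PFKFB3 moved opposite to PFKFB4. It was at 39.4, 41.4 and 35.3 CPM with both compounds, against 29.4, 27.5 and 25.8 with DEX (0.49 ± 0.06, adjusted p = 8.84e-05), a level that was not called different from no drug (adjusted p = 0.172). ADM also rose against DEX, by 0.53 ± 0.07 (adjusted p = 0.000183), and the remaining 2 rises, HK1 and PFKP, were of 0.12 on the log2 scale. HK1 was at an adjusted p of 0.0498 and was called in only 3 of 19 alternative fits. Of the 9 other HIF targets 1 rose and 4 fell against DEX (55.6% called), with a median of -0.17. Of the 17 enzymes and lactate dehydrogenases 2 rose and 3 fell (29.4% called), with a median of -0.02. The share over all genes was 26.6%, close to that of the enzymes, and the difference between the classes was not tested. With DESeq2 size factors or with total counts 1 enzyme rose in place of 2. SLC2A1 (-0.05), HK2 (-0.02), ENO2 (0.06), PKM (0.07), PDK2 (0.05) and EPAS1 (-0.05) did not pass, with 95% intervals within -0.16 and 0.19. The calls of HK1, LDHA, PDK1, PFKP and SLC2A3 were lost without replicate 2 of the combination, those of HK1, LDHA and SLC2A3 without replicate 1, and that of HK1 without replicate 3.

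Against SH4-54 alone, the effect of DEX in the presence of SH4-54, 12 rose, 10 fell and 16 did not pass, 57.9% called against 40.4% of all genes (20.1% up, 20.3% down). The groups of 22 members (57.9%) did not overlap, against 48.4% of all genes. Without replicate 1, 2 or 3 of the combination, 11, 11 or 9 rose and 10, 10 or 12 fell. ADM rose most, from 90.9, 87.1 and 90.6 to 159, 155 and 125 CPM (0.71 ± 0.07, adjusted p = 2.21e-06). SLC16A3 rose from 299, 310 and 314 to 403, 381 and 417 CPM (0.38 ± 0.04, adjusted p = 1.55e-06), and PGK1 by 0.22 ± 0.03. EPAS1 rose by 0.28 ± 0.06 (adjusted p = 0.000803), and HIF1A by 0.22 ± 0.06 (adjusted p = 0.0105), with overlapping groups of 583, 612 and 626 against 711, 619 and 787 CPM. EGLN3 fell most, from 14.9, 16.7 and 16.98 to 9.17, 9.49 and 10.2 CPM (-0.74 ± 0.07, adjusted p = 1.37e-06). HK2, ENO2, PDK2, PKM, NDRG1, VEGFA, SLC2A1, KDM3A and EGLN1 fell as well, and P4HA2, HK1, GPI, PFKM, PFKP, LDHB and SLC16A1 rose. The calls of HIF1A, LDHB and SLC16A1 were lost when 1 library or another was left out, among them replicate 3 of the combination, without which HIF1A was at 0.12 (adjusted p = 0.0524). The comparisons with the combination share its wells, and those with no drug share the no-drug wells, so they are not independent of each other.

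**Figure D3:**
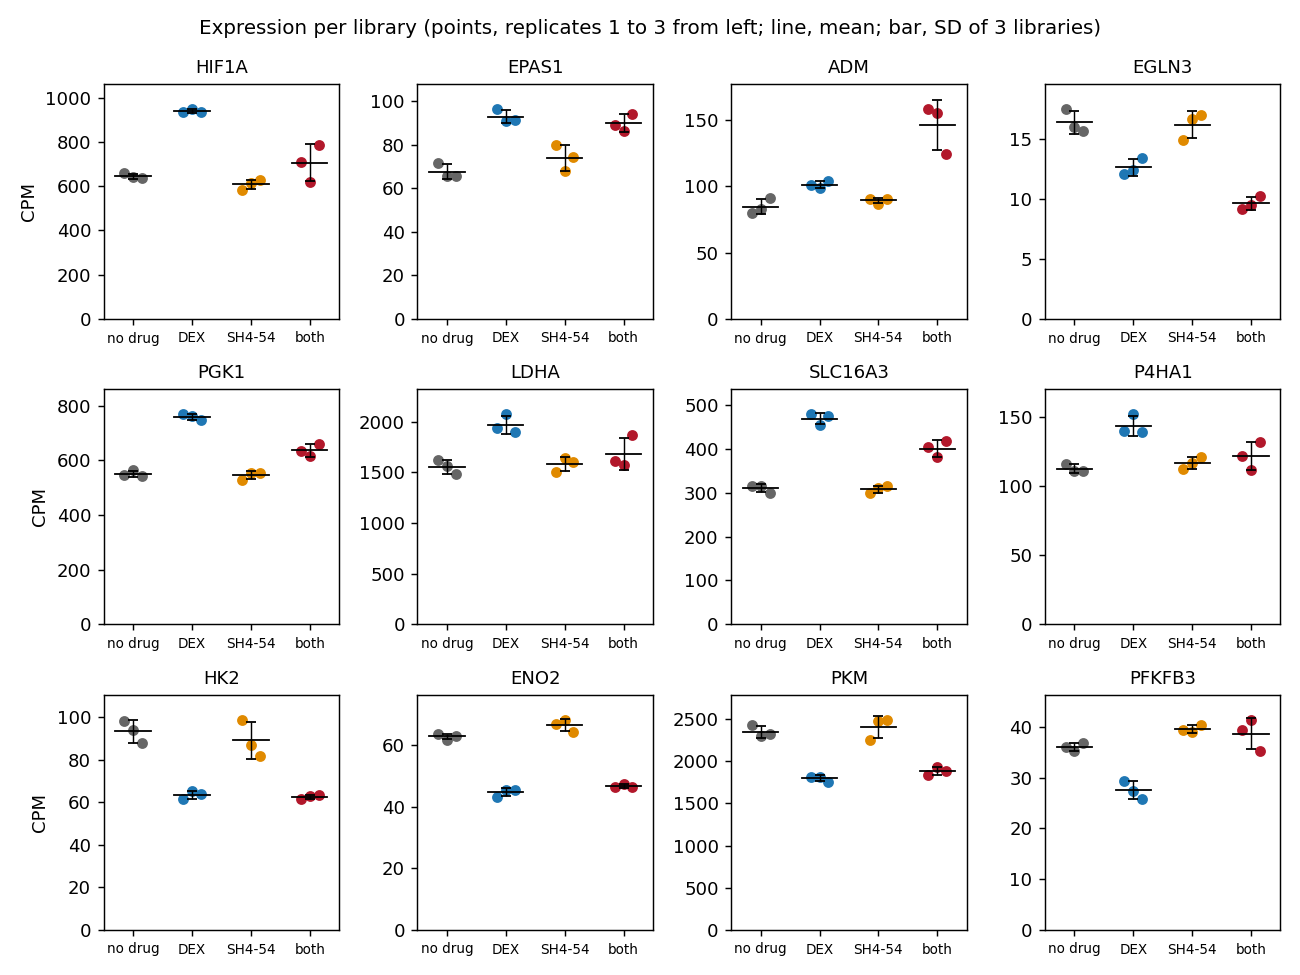
CPM in each well for 12 members, with replicates 1 to 3 from left in each group, the mean as a line and the SD as a bar (n = 3), on axes from 0. HIF1A, PGK1, SLC16A3 and P4HA1 are highest with DEX and lower with both, ADM is highest with both at 125 to 159 CPM, and HK2, ENO2 and PKM are low in both DEX groups.

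The interaction asks whether the DEX effect differed with SH4-54, as the DEX effect with SH4-54 minus the DEX effect without it. Over all genes 3.9% were called (2.44% up, 1.46% down), and of the members 5 (13.2%) were, 2 up and 3 down, with 16 (42.1%) at an unadjusted p under 0.05 against 21.1% of all genes. The count changed with a library left out: members called up ranged from 0 to 2 and members called down from 1 to 11. Such a fit also has fewer degrees of freedom, and the part of that in lost calls was not tested. Without replicate 1 of the combination 0 were up and 1 down, without replicate 2 they were 0 and 2, and without replicate 3 they were 2 and 11. Of the 5, 3 are genes whose DEX rise was smaller with SH4-54. PGK1 had a DEX effect of 0.46 without and 0.22 with SH4-54, a difference of -0.24 ± 0.05 (adjusted p = 0.0149). SLC16A3 had effects of 0.60 and 0.38 (-0.22 ± 0.05, adjusted p = 0.0377), and HIF1A of 0.54 and 0.22 (-0.33 ± 0.09, adjusted p = 0.0478). The other 2 went the opposite way. ADM had effects of 0.26 and 0.71, a difference of 0.45 ± 0.10 (adjusted p = 0.0289). PFKFB3 had an effect of -0.38 without and of -0.03 with SH4-54, a difference of 0.35 ± 0.08 (adjusted p = 0.0341).

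PGK1 was the call that held in all 18 alternative fits, with adjusted p from 7.34e-05 to 0.0471. The calls of ADM, PFKFB3, SLC16A3 and HIF1A held in 9, 8, 7 and 6 of the 18, and without replicate 2 of the combination ADM, PFKFB3 and SLC16A3 lost theirs (adjusted p = 0.0677, 0.0782 and 0.0772). Without replicate 1 the calls of all 4 were lost (adjusted p from 0.0656 to 0.086), and without replicate 3 all 4 were called. P4HA1 (-0.29, adjusted p = 0.0521), EGLN3 (-0.37, adjusted p = 0.0597) and PFKFB4 (-0.61, adjusted p = 0.0707) missed the threshold. They were called in 5, 3 and 4 of the 18 alternative fits. HK2, ENO2, PKM and PDK2 had differences between -0.02 and 0.05, with 95% intervals that reached at most 0.22 from 0. Of the 9 other HIF targets 8 had a negative interaction and 1, ADM, a positive one, with a median of -0.15 and 6 of them (66.7%) at an unadjusted p under 0.05. Of the 17 enzymes and lactate dehydrogenases 10 were negative and 7 positive, with a median of -0.01 and 3 (17.6%) at an unadjusted p under 0.05, against the 21.1% of all genes. The difference between these classes was not tested. Among the 14 members that rose with DEX, the lowest well with both compounds was replicate 2 for 12 and the highest was replicate 3 for 11. Over all 3104 genes that rose with DEX the shares were 53.8% and 51%.

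**Figure D4:**
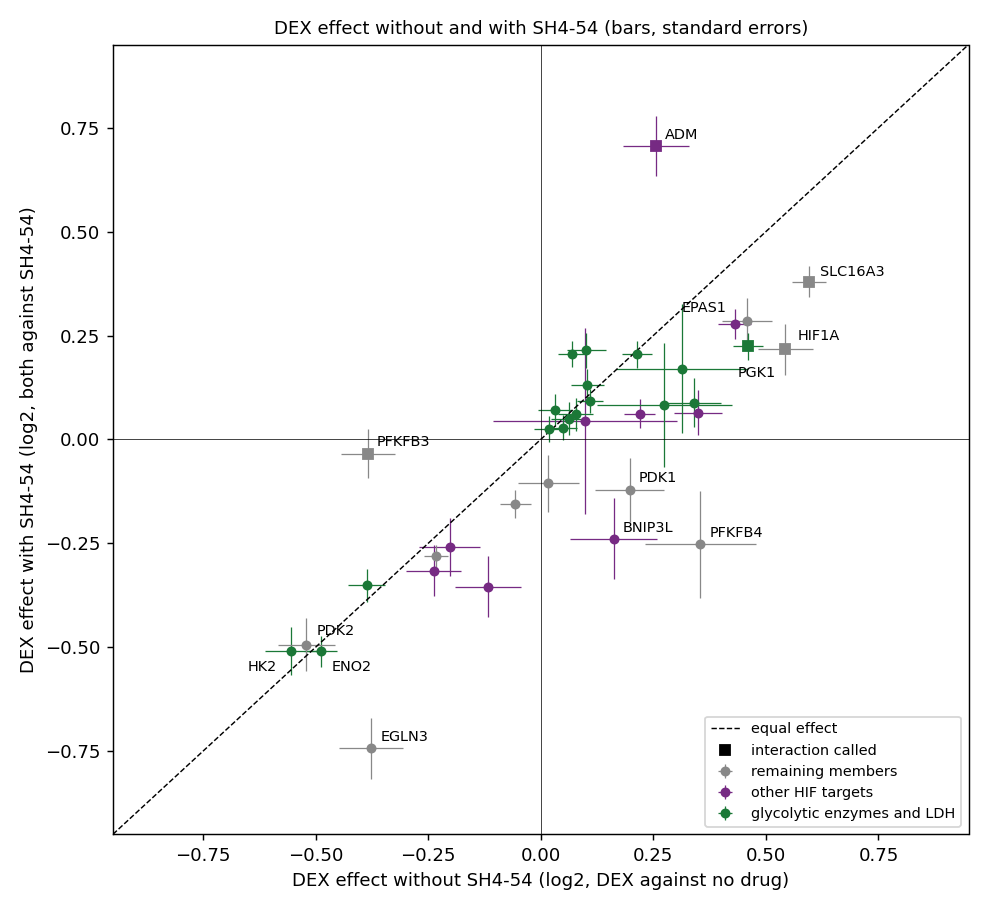
DEX effect without SH4-54 (x, DEX against no drug) and with it (y, both against SH4-54) for 37 members (SLC16A1 is not drawn), as log2 fold changes with standard errors; the dashed line marks equal effects and squares mark the 5 called interactions. PGK1, SLC16A3 and HIF1A lie below the line, ADM and PFKFB3 above it, and HK2, ENO2 and PDK2 on it.

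Other genes of the same pathways were counted from 2 lists that hold no member. Of 34 tested genes of the HIF pathway 15 rose and 7 fell with DEX, 64.7% against the background of 45.1%. ANGPTL4, an inhibitor of lipoprotein lipase, rose by 3.99 ± 0.08. The collagen lysyl hydroxylase PLOD2 rose by 0.73 ± 0.04. With SH4-54 alone 2 of the 34 rose and 0 fell by edgeR, 5.88% against the background of 0.599%, with 10 (29.4%) at an unadjusted p under 0.05 against 13.1%, and ANGPTL4 rose by 0.74 ± 0.09 (adjusted p = 0.00163). With both compounds against DEX, 3 rose and 13 fell, 47.1% against 26.6% of all genes. The collagen cross-linking enzyme LOX fell by 0.75 ± 0.09 on the log2 scale, and CITED2, which competes with HIF for its coactivator, rose by 0.52 ± 0.06. In the interaction 1 gene of this list rose, CITED2 (0.54 ± 0.09, adjusted p = 0.00613), and 6 fell, 20.6% against the 3.9% of all genes.

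Of 39 tested genes of glucose metabolism 10 rose and 8 fell with DEX, 46.2% against the background of 45.1%. The hexokinase relative HKDC1 fell by 1.06 ± 0.04 on the log2 scale. The phosphoglucomutase PGM1 rose by 0.40 ± 0.04 and the monocarboxylate transporter SLC16A7 by 0.59 ± 0.06. With both compounds against no drug 8 rose and 5 fell, 33.3% against 42.7% of all genes, with PDK4 up by 1.39 ± 0.13 and PDK3 down, at -0.54 ± 0.08. None of this list was called with SH4-54 alone by edgeR, with 6 (15.4%) at an unadjusted p under 0.05 against 13.1%. In the interaction 1 gene, HKDC1, was called, 2.56% against 3.9% (0.36 ± 0.05, adjusted p = 0.00252).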

How the data were processed

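RNA from 12 wells was sequenced as 50-base single-end reads from stranded libraries depleted of ribosomal RNA, per the labels' protocols. The authors deposited raw read counts in 1 table of 26364 gene symbols. Per the submitters' processing notes, the build was hg19 (GRCh37) and the tools were featureCounts 1.5.1, HISAT2 2.1.0 and SAMtools. The sources used here give no annotation, strand setting or rule for multi-mapping reads. Groups follow the titles, since the treatment tag of the SH4-54 samples reads SH5-54.

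The analysis used R 4.3.3, edgeR 4.0.16 and limma 3.58.1. After filterByExpr 14184 genes remained. TMM scaling was applied, and a quasi-likelihood model of the 4 groups was fitted to the 12 libraries together (8 residual degrees of freedom). Tests are two-sided, p-values were adjusted by Benjamini-Hochberg across those genes at a threshold of 0.05, and an adjusted p is edgeR's unless DESeq2 is named. A standard error is the size of the log2 fold change divided by the root of its F statistic. Levels per kb divide CPM by the longest GENCODE v29 principal transcript.

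Full values are given for members with an adjusted p below 0.05, at least 5 CPM in a group and no overlap, up to 5 per direction, and for HIF1A, EPAS1, SLC2A1, HK2, LDHA and VEGFA. Other members were named from their values, and other pathway genes by smallest p, up to 3 per list. An item that this rule takes is not reported here. The members and lists were chosen with earlier results of these data known. The scripts were tested on simulated data. The alternatives were DESeq2 size factors, total counts, the Wald test of DESeq2 1.42.0, no filter, a filter of 1 CPM in 3 libraries with a mean of 20 counts, a replicate block, the compared groups by themselves (not for the interaction, which needs all 4), and each library left out. Replicates differed by more than sampling noise in each group (chi-square over degrees of freedom, lowest 4.39). Promoter windows come from RefSeq (GRCh38.p14), another build than that of the counts.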

Additional observations from a re-analysis of the deposited data

Results flagged for a closer look

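Of the members, 5 had a DEX effect that differed with SH4-54, by edgeR's test of the interaction itself. On the log2 scale the DEX effect with SH4-54 minus the effect without it was -0.24 for PGK1 and -0.22 for SLC16A3. It was -0.33 for HIF1A, 0.45 for ADM and 0.35 for PFKFB3. The adjusted p-values ranged over the 18 alternative fits from 7.34e-05 to 0.0471 for PGK1, from 0.003 to 0.105 for SLC16A3 and from 0.000594 to 0.117 for HIF1A. For ADM they ranged from 0.000133 to 0.0821 and for PFKFB3 from 0.00332 to 0.0897. All 5 differences kept their sign in every one of these fits. The 5 were taken because they passed in these same data, and the fits share most libraries, so a kept sign is no separate support.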

How the results depend on the processing

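Of 4283 values of the 38 members recomputed over the 6 comparisons, 4100 kept their side of the threshold, 131 were no longer called, 52 were newly called and 0 changed sign while called. Those newly called most often were HK1 with DEX, in 8 fits, and P4HA1 in the interaction, in 5. The 566 values of the other pathway genes taken by the rule kept direction and call. Those genes were taken for the smallest p among called genes of these data, so that result cannot be set against the members' lost calls. Calls held in every alternative for 19 of 23 members with DEX (GPI, KDM3A, PDK1 and PFKFB4 did not), 18 of 22 with both compounds against no drug (not EGLN1, NDRG1, PFKFB4 and SLC2A3), 12 of 17 against DEX (not HK1, LDHA, PDK1, PFKP and SLC2A3), 19 of 22 against SH4-54 (not HIF1A, LDHB and SLC16A1) and 1 of 5 interactions. With DESeq2, 1 member fell with SH4-54 alone, against 0. With both compounds against DEX, the number of members risen ranged from 2 to 4 when a library was left out, at 2 without DEX replicate 2 or 3 or combination replicate 2. For the interaction, members risen ranged from 0 to 2 and members fallen from 1 to 11, the highest without combination replicate 3; 8 fell with no count filter, 7 with DESeq2 and 1 with the replicate block. Over all genes, SH4-54 alone had 38 risen and 47 fallen, 82 and 94 with no count filter, 71 and 84 with the compared groups alone, and 76 and 109 with DESeq2, and 18 to 73 and 8 to 90 with a library left out. The interaction over all genes had 346 risen (135 to 833 with a library left out) and 207 fallen (389 with no count filter, 370 with DESeq2, 68 to 1213 with a library left out). Both compounds against DEX gave 1851 risen and 1919 fallen genes, and 1067 and 1146 without combination replicate 2. The 5 enzymes and lactate dehydrogenases that rose with DEX were 9 with the compared groups alone. Against DEX the 2 risen enzymes ranged from 0 to 2 with a library left out. For the other HIF targets the median with both compounds against no drug, -0.20, was -0.10 without no-drug replicate 1 and without combination replicate 2. For the same genes against SH4-54 the median of 0.04 turned to -0.11 without SH4-54 replicate 1 and -0.14 without combination replicate 3. Total counts moved the median of all genes by at most 0.03. Replicate numbers did not pair the wells: 18 same-numbered pairs correlated between -0.10 and 0.09, and 2 of 12 libraries correlated best with their own number. With the replicate block, NDRG1 against no drug, HK1 against DEX, SLC16A1 against SH4-54 and the interactions of HIF1A and SLC16A3 were no longer called (adjusted p = 0.0569, 0.0783, 0.0618, 0.055 and 0.0576). The cause of these changes was not tested.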
